A study of Bos taurus with 6 samples.

Results

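Transcription regulators of meiotic and post-meiotic male germ cells were examined, 10 genes in all: *CREM*, *FHL5*, *RFX2*, *RFX3*, *RFX4*, *MYBL1*, *TCFL5*, *SOX30*, *TBPL1* and *GTF2A1L*. They were picked by gene symbol out of the 47249 entries of the gene table, and each of the 10 symbols matched 1 entry. The samples were testes of 6 untreated Wandong cattle (*Bos taurus*), of which 3 were immature calves (age 3 months) and 3 were mature bulls (age 3 years), with 1 library of ribosome-depleted total RNA per animal. Levels are FPKM, which scales fragments by transcript length and by the fragments of the library, so they can be compared between genes of different length. The tables hold no read counts per gene, and no counting interval is given for single values. As total RNA was sequenced, linear and circular products of a gene are not told apart by its FPKM.

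As male germ cells enter meiosis they switch to a transcription programme of their own, in which several regulators are germ cell forms of widely used factors. CREM is a cAMP-responsive activator of spermatid genes and FHL5 is its coactivator, while RFX factors bind X-box motifs in front of genes for cilia and the sperm flagellum. MYBL1 drives pachytene genes, TCFL5 and SOX30 act around the passage from spermatocyte to spermatid, and TBPL1 and GTF2A1L are counterparts of TBP and of the large TFIIA subunit in the basal machinery.

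The library labelled calf 3 stood apart and is treated as such throughout. All 10 neural markers examined were highest in it, with a summed FPKM of 14127 against 14.0 and 14.1 in calf 1 and calf 2 and 11.2 to 19.1 in bulls. Its Sertoli cell markers summed to 14.8 against 1786 in calf 1 and 1456 in calf 2, and its Leydig cell markers to 0.484 against 1400 and 1121. Most of that Sertoli cell sum in calf 3 was *SOX9*, picked out after its values were seen, at 13.7 FPKM against 21.9 and 25.6. *FSHR*, *WT1*, *GATA4*, *CYP11A1*, *CYP17A1* and *HSD17B3* were listed at 0 there. Defining markers of the labelled tissue were thus absent from this library, and the tests of the regulators are also given without it. The spermatid markers summed to 0.661 to 2.96 in calves and to 667 to 747 in bulls, and the spermatocyte markers to 10.5 to 27.3 and 173 to 201. In bulk tissue, fewer cells of a type and less RNA per cell cannot be told apart.

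All 10 regulators were higher in mature bulls, and for each of them the lowest bull lay above the highest calf. Bulls and calves were compared with limma on log2(FPKM + 1), and a gene was called when its Benjamini-Hochberg adjusted p was below 0.05 and its log2 fold change was at least 1 in size. All 10 passed the filter on low values and were called higher. Over the 18115 genes tested, 35.7% were called higher in bulls, and in 46.1% all bulls lay above all calves. Without calf 3, all 10 were again called, against 37.9% of the genes tested. The median log2 fold change of the regulators was 3.34 and that of all genes tested was 0.43. After quantile normalization the medians were 2.62 and -0.26, and 9 of the 10 regulators were called. Under that scaling 3827 of the 18115 genes tested were called higher. The summed FPKM of the 10 genes was 31.0 to 47.1 in calves and 548 to 584 in bulls.

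**Figure D1:**
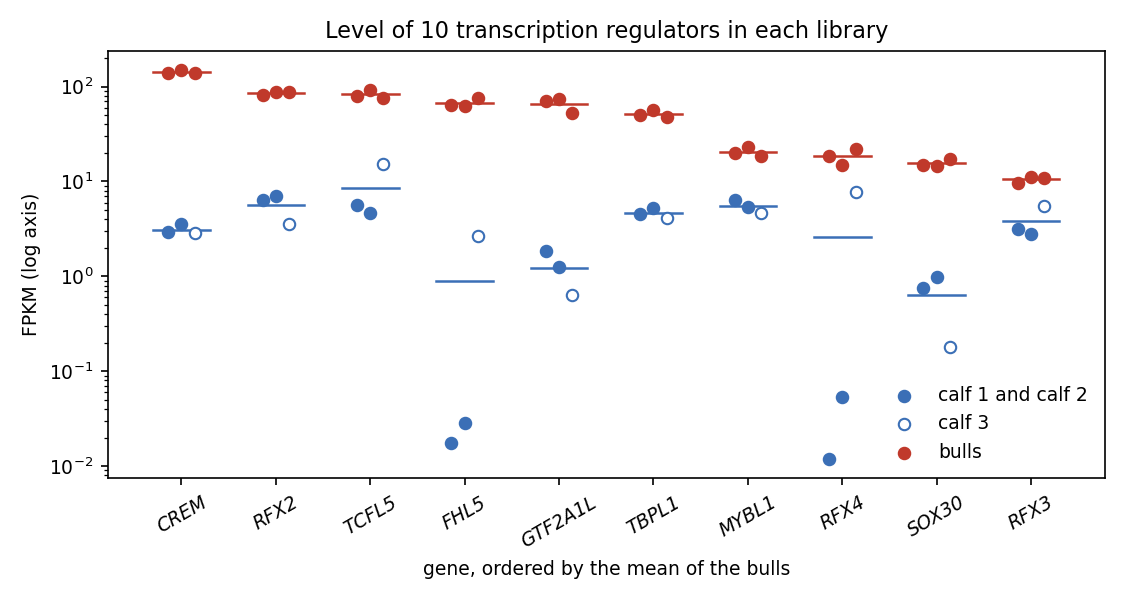
FPKM of each gene (log axis) in 3 calves (blue, calf 3 as open circles) and 3 bulls (red), with horizontal lines at the group means and genes ordered by the mean of bulls. No bull overlaps a calf for any gene, and calf 3 lies far above the other 2 calves for *FHL5* and *RFX4*.

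*CREM* (ENSBTAG00000016060, chr13:18225535-18280982) had the highest level of the 10 genes in every bull. In the order of the replicate numbers, which is kept below, its FPKM was 2.92, 3.56 and 2.83 in the calves and 139.5, 149.0 and 138.7 in the bulls. The 3 calves lay close together and the lowest bull was 38.9 times the highest calf, the widest gap among the 10 genes with all calves. That rank depended on calf 3, which was the highest calf for *FHL5* and *RFX4*. Against the mean of calf 1 and calf 2, the bull mean was 43.9 times higher for *CREM*, 2944 times for *FHL5* and 563 times for *RFX4*. The means were 3.11 ± 0.399 and 142.4 ± 5.73 (SD, n = 3 each), and the log2 fold change was 5.13 (SE 0.14, limma adjusted p = 4.27e-06). Without calf 3 it was 5.08.

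*FHL5* (ENSBTAG00000001803, chr9:53186120-53239319), the coactivator of CREM also known as ACT, was nearly silent in the first 2 calves. Its FPKM was 0.0174, 0.0286 and 2.65 in the calves and 63.6, 62.7 and 76.5 in the bulls. Calf 3 was the only calf with more than a trace, and it still lay below every bull. The log2 fold change was 5.45 (SE 0.52, limma adjusted p = 0.0003), the largest among the 10 genes, and 6.06 (SE 0.13) without calf 3. The value of calf 3 also came from another transcript. *FHL5-203* gave 81.6% of the *FHL5* level in calf 3, whereas *FHL5-201* gave 90.7% to 96.5% in bulls. *FHL5-201* was at 0.0174, 0.0286 and 0.402 FPKM in calves and at 61.4, 59.4 and 69.4 in bulls (log2 fold change 5.82, limma adjusted p = 8.97e-06). *FHL5-203* was listed at 0 in calf 1 and calf 2, at 2.17 in calf 3 and at 2.20, 2.84 and 6.58 in bulls, and it was not called with all libraries (log2 fold change 1.63, limma adjusted p = 0.0529) but was called without calf 3 (2.18, limma adjusted p = 0.00487) and with array weights (2.12, limma adjusted p = 0.00177).

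The transcript table lists 6 entries for *CREM*, of which 4 are Ensembl transcripts and 2 were assembled from the reads. *CREM* is known for isoforms that activate and isoforms that repress, but the tables do not say which entry encodes which. *CREM-202* (chr13:18226732-18280982) was the leading transcript of bulls, with 1.12, 1.11 and 0.531 FPKM in calves and 76.5, 92.5 and 68.4 in bulls (log2 fold change 5.39, SE 0.21, limma adjusted p = 1.4e-05). *CREM-204* (chr13:18227153-18278266) was a trace in calves, with 0.0125, 0.0147 and 0.00632 FPKM, and stood at 27.5, 28.1 and 28.6 in bulls (log2 fold change 4.85, SE 0.16, limma adjusted p = 8.54e-06). The shorter *CREM-201* (chr13:18226732-18256681) also went from a trace to a clear level, from 0.0446, 0.161 and 0.00494 in calves to 19.1, 13.5 and 25.2 in bulls (log2 fold change 4.20, SE 0.27, limma adjusted p = 6.87e-05). These 3 transcripts were called higher and no bull overlapped a calf. Without calf 3 their log2 fold changes were 5.23, 4.84 and 4.16, and all were called again.

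*CREM-203* (chr13:18227153-18275797) did not follow them. Its FPKM was 0.924, 1.13 and 1.27 in calves and 0.722, 0.439 and 1.28 in bulls, and the groups overlapped (log2 fold change -0.24, SE 0.20, limma adjusted p = 0.348, and -0.18, limma adjusted p = 0.495, without calf 3). It is the one tested *CREM* transcript that was not called. Under 14 alternatives its log2 fold change ran from -0.96 (quantile normalization) to -0.085 (without bull 2). The limma adjusted p ran from 0.00347 to 0.736, and it was called under none of them. How far *CREM-203* was lower in bulls thus depended on the setting. The assembled entry TCONS_00073053 (chr13:18225535-18237825) was at 0.552, 0.888 and 0.385 in calves and at 14.3, 14.5 and 15.2 in bulls (log2 fold change 3.29, limma adjusted p = 5.74e-05, and 3.19 without calf 3). TCONS_00073054, at the same positions, was at 0.271, 0.263 and 0.638 in calves, at 1.45 in bull 1 and at 0 in bull 2 and bull 3, and was too low to be tested.

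The make-up of *CREM* RNA thus differed between the ages. *CREM-203* took 31.6%, 31.7% and 44.8% of the *CREM* level in calves and 0.517%, 0.294% and 0.924% in bulls. *CREM-204* took 0.355% ± 0.114 in calves and 19.7% ± 0.895 in bulls, and *CREM-202* took 29.4% ± 9.89 and 55.4% ± 6.38 (SD, n = 3 each). For each of the 5 tested transcripts the shares of the groups did not overlap, and the exact two-sided permutation test gave p = 0.1 (0.1 adjusted over 5 transcripts), the smallest that 3 against 3 animals allows. The threshold of 0.05 could therefore not be reached for any share. Shares of a gene add up to a fixed total, so the 5 results are not independent. In calves they rest on a *CREM* level of only 2.83 to 3.56 FPKM. Without calf 3 the share of *CREM-203* fell by 31.1 percentage points from calves to bulls and that of *CREM-204* was 19.3 points higher (exact permutation p = 0.2 each).

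**Figure D2:**
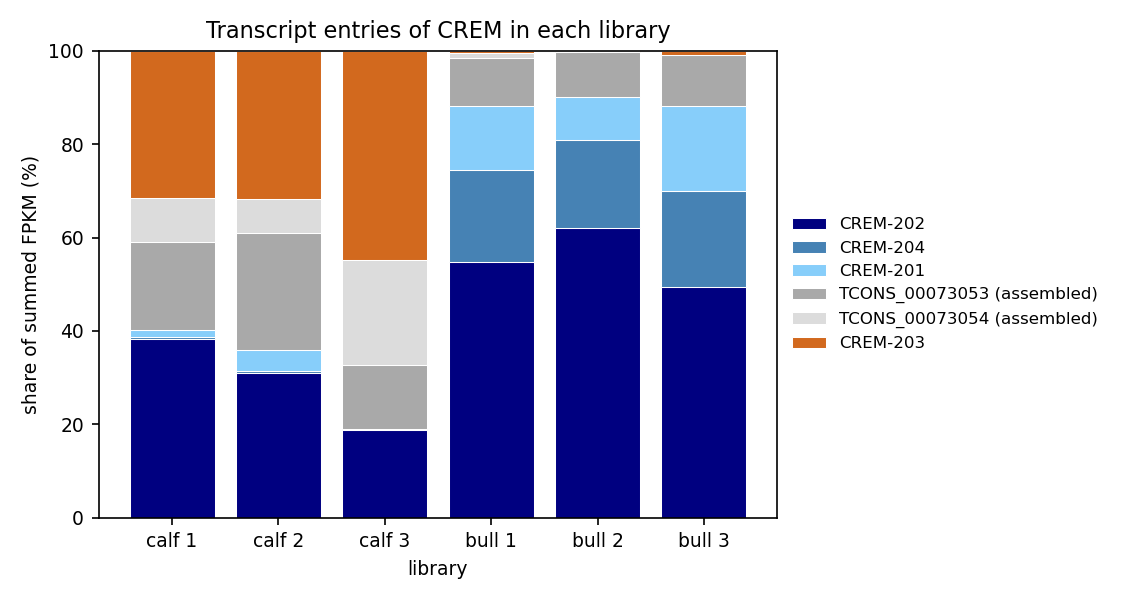
Share of the summed *CREM* FPKM (%) taken by each of its 6 transcript entries, 1 bar per library. *CREM-203* (orange) takes 31.6% to 44.8% in calves and under 1% in bulls, where *CREM-202* and *CREM-204* (dark and middle blue) lead.

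*RFX2* (ENSBTAG00000017661, chr7:18305239-18416093), the RFX factor best known for spermiogenesis, had the highest level of the 3 RFX genes in bulls. Its FPKM was 6.42, 7.02 and 3.58 in calves and 81.0, 87.4 and 87.3 in bulls. Bulls varied little, and calf 3 was the lowest calf. A log2 fold change of 3.73 (SE 0.24, limma adjusted p = 6.67e-05) was measured, and 3.48 without calf 3.

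Most of the calf level of *RFX2* came from entries other than its Ensembl transcripts. Under this gene the table lists 4 Ensembl transcripts and 9 assembled entries, 8 of them named as antisense (AS) and 1 as an overlapping transcript (OT). The Ensembl transcripts summed to 1.02, 0.700 and 0.439 FPKM in calves, which was 15.9%, 9.97% and 12.3% of the gene. In bulls they summed to 68.9, 69.3 and 79.1, or 85.0%, 79.3% and 90.7% of the gene. The mean of the Ensembl transcripts was 100.5 times higher in bulls and that of the assembled entries 2.58 times higher (5.40, 6.32 and 3.14 in calves, 12.1, 18.1 and 8.12 in bulls). With Ensembl transcripts alone the log2 fold change of *RFX2* was 5.43 (SE 0.19, limma adjusted p = 7.16e-06).

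*RFX2-201* was the leading transcript, at 0.610, 0.284 and 0.220 FPKM in calves and 56.8, 57.2 and 61.2 in bulls (log2 fold change 5.45, limma adjusted p = 8.03e-06). *RFX2-204* followed, at 0.240, 0.0799 and 0.0604 in calves and 11.4, 11.6 and 17.2 in bulls (log2 fold change 3.65, limma adjusted p = 6.78e-05). Both were called again without calf 3, with 5.37 and 3.61. Of the 4 antisense entries that could be tested, *RFX2-AS2* was called higher (log2 fold change 1.17, limma adjusted p = 0.0123). It lost that call without calf 3 (0.92), with array weights (0.93), with a pseudocount of 0.1 (limma adjusted p = 0.0523), after upper quartile rescaling (0.87) and after quantile normalization (0.36, limma adjusted p = 0.269). The other 3, *RFX2-AS5*, *RFX2-AS7* and *RFX2-AS6*, had log2 fold changes of 0.44, 0.71 and 0.52 and were not called. The libraries were made to keep the strand, but the sources used here do not say whether the assignment of reads used it, so reads of *RFX2* and of its antisense entries may have been shared.

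**Figure D3:**
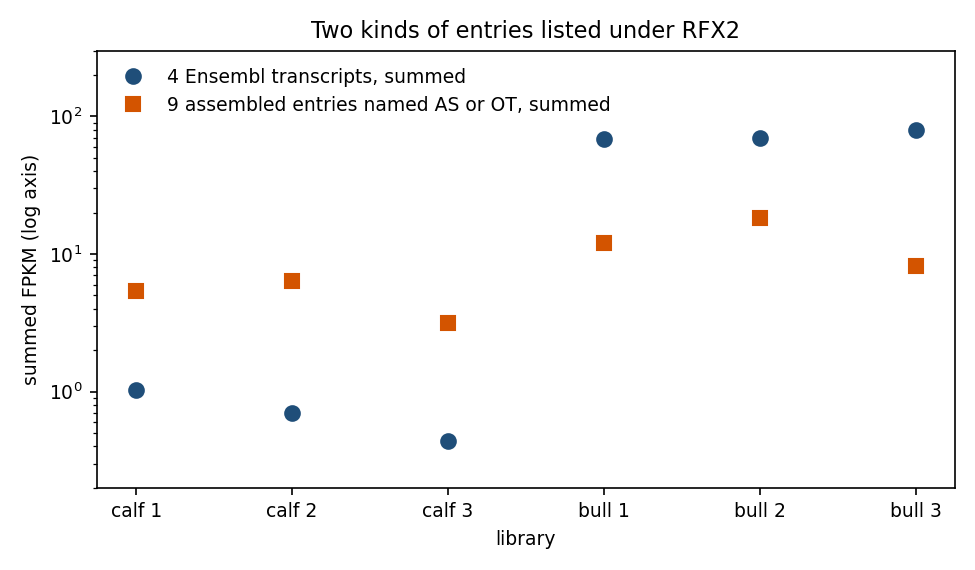
Summed FPKM (log axis) of the 4 Ensembl transcripts (blue circles) and the 9 assembled entries (orange squares) listed under *RFX2*, by library. The assembled entries exceed the Ensembl transcripts in all 3 calves (3.14 to 6.32 against 0.439 to 1.02), and the order is the opposite in all 3 bulls.

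*RFX3* (ENSBTAG00000000819, chr8:41012203-41258537), a regulator of motile and primary cilia in many tissues, showed the smallest difference of the 10 genes. Its FPKM was 3.17, 2.77 and 5.56 in calves and 9.53, 11.2 and 11.0 in bulls. Calf 3 was the highest calf, and the lowest bull was 1.71 times above it. The log2 fold change was 1.30 (SE 0.25, limma adjusted p = 0.00593) and 1.54 (SE 0.14) without calf 3. It fell below the fold required for a call after quantile normalization (0.80, limma adjusted p = 0.0322) and after rescaling to a common upper quartile (0.76, limma adjusted p = 0.0396). Its 2 Ensembl transcripts behaved differently. *RFX3-201* was at 1.28, 1.18 and 2.12 FPKM in calves and 6.74, 7.75 and 8.74 in bulls (log2 fold change 1.80, limma adjusted p = 0.000972, and 1.96 without calf 3). *RFX3-202* was at 1.80, 1.49 and 2.47 in calves and 2.18, 3.07 and 1.87 in bulls, where the groups overlapped (log2 fold change 0.21, limma adjusted p = 0.482), and its sign turned under both of those scalings. The share of *RFX3-201* was 40.4% ± 2.27 in calves and 73.1% ± 5.69 in bulls.

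*RFX4* (ENSBTAG00000025837, chr5:69980465-70051146), known from the developing brain and from testis, was the gene most affected by the choice of calves. Its FPKM was 0.0119, 0.0540 and 7.69 in calves and 18.5, 15.0 and 22.1 in bulls. Calf 3 lay near the bulls and the other 2 calves lay near 0. The log2 fold change was 3.20 (SE 0.86, limma adjusted p = 0.0209) with all libraries and 4.23 (SE 0.19, limma adjusted p = 7.97e-06) without calf 3. Leaving out any one of the other 5 libraries ended the call, with log2 fold changes of 2.67 to 3.34 and limma adjusted p of 0.0597 to 0.0756. The Ensembl transcript *RFX4-201* was listed at 0 in calf 1 and calf 2, at 5.95 in calf 3 and at 17.6, 12.5 and 16.4 in bulls (log2 fold change 3.10, limma adjusted p = 0.0179, and 4.03 without calf 3), and it lost its call in the same 5 cases. The assembled entry TCONS_00296121 was at 0.0119, 0.0540 and 1.74 in calves and 0.912, 2.44 and 5.75 in bulls, and it was not called with all libraries (log2 fold change 1.31, limma adjusted p = 0.111) but was called without calf 3 (1.78, limma adjusted p = 0.0292) and with array weights (1.73, limma adjusted p = 0.0118).

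Calf 3 was the highest calf for *FHL5*, *RFX3*, *RFX4* and *TCFL5* and the lowest calf for the other 6 genes. Relative to the mean of calf 1 and calf 2 it held 234 times as much *RFX4*, 115 times as much *FHL5*, 2.96 times as much *TCFL5* and 1.87 times as much *RFX3*. For *SOX30* and *GTF2A1L* it held 0.207 and 0.412 times as much. The neural markers given above were also highest in this library. Its spermatocyte markers summed to 10.5 FPKM against 20.6 and 27.3 in calf 1 and calf 2, with 5 of 6 lowest in it among calves. The exception, *MLH3*, also picked out after its values were seen, held most of the calf 3 sum. It was at 7.76 FPKM there against 3.37 and 3.96. The spermatid markers of calf 3 summed to 0.661 against 2.65 and 2.96, with 2 of 6 lowest in it. Its spermatogonia markers summed to 209.6 against 82.6 and 93.4, where *DDX4* was at 0.0152 against 14.0 and 20.2 and *UCHL1*, a gene also known from neurons and picked out here after its values were seen, was at 200.7 against 25.6 and 30.04. Their part in these values was not tested.

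*MYBL1* (ENSBTAG00000011981, chr14:30827578-30869853), the A-MYB factor of pachytene spermatocytes, was detected in every calf. Its FPKM was 6.39, 5.40 and 4.64 in calves and 19.8, 23.3 and 18.6 in bulls. Calf 3, in which 5 of 6 spermatocyte markers were the lowest among calves, held 0.787 times the *MYBL1* mean of calf 1 and calf 2. Which cells gave the level in calves was not tested. The lowest bull was 2.91 times the highest calf, and the log2 fold change was 1.74 (SE 0.18, limma adjusted p = 0.000393), or 1.64 without calf 3. *MYBL1-201* was at 3.98, 4.78 and 2.34 in calves and 15.6, 17.5 and 15.4 in bulls (log2 fold change 1.90, limma adjusted p = 0.00112, and 1.67 without calf 3). *MYBL1-202* was at 2.21, 0.511 and 1.83 in calves and 3.86, 5.59 and 2.99 in bulls (log2 fold change 1.07, limma adjusted p = 0.0485), just past the threshold. Leaving out calf 2 or any one bull ended that call (limma adjusted p of 0.0708 to 0.145), as did a pseudocount of 0.1 (0.0722), no filter (0.0913) and rescaling to a common total (0.0585). Its log2 fold change was 0.63 after upper quartile rescaling (limma adjusted p = 0.221) and 0.46 after quantile normalization (limma adjusted p = 0.310), so its difference between the ages was not firm.

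*TCFL5* (ENSBTAG00000046520, chr13:54528121-54545401), a basic helix-loop-helix factor of spermatocytes and spermatids, was at 5.60, 4.65 and 15.2 FPKM in calves and 80.5, 91.6 and 75.9 in bulls. Calf 3 exceeded the other calves but the lowest bull was 4.99 times above it. The log2 fold change was 3.30 (SE 0.41, limma adjusted p = 0.000884) and 3.77 (SE 0.13) without calf 3. Its 2 transcripts were both called higher. *TCFL5-202* went from 3.54, 2.96 and 9.89 to 71.3, 80.3 and 66.5 (log2 fold change 3.66, limma adjusted p = 0.000569), and *TCFL5-201* from 2.07, 1.69 and 5.30 to 9.24, 11.3 and 9.34 (log2 fold change 1.55, limma adjusted p = 0.0121). The call of *TCFL5-201* was lost without bull 2 (1.46, limma adjusted p = 0.0519), after upper quartile rescaling (1.02, limma adjusted p = 0.0581) and after quantile normalization (0.99, limma adjusted p = 0.0564). Without calf 3 both were called, with 4.12 and 1.93. The share of *TCFL5-202* was 63.1%, 63.7% and 65.1% in calves and 88.5%, 87.6% and 87.7% in bulls. Calf 3 lay near the other calves in this share, although its level was 2.96 times their mean.

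*SOX30* (ENSBTAG00000020491, chr7:69255959-69297638), a SOX factor required for the passage from spermatocyte to round spermatid in mouse, was low in calves. Its FPKM was 0.753, 0.990 and 0.181 in calves and 14.8, 14.6 and 17.3 in bulls. Every bull lay at least 14.8 times above every calf, and calf 3 was the lowest calf. This gave a log2 fold change of 3.37 (SE 0.25, limma adjusted p = 0.0001), and 3.15 without calf 3. A single transcript is listed for it.

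**Figure D4:**
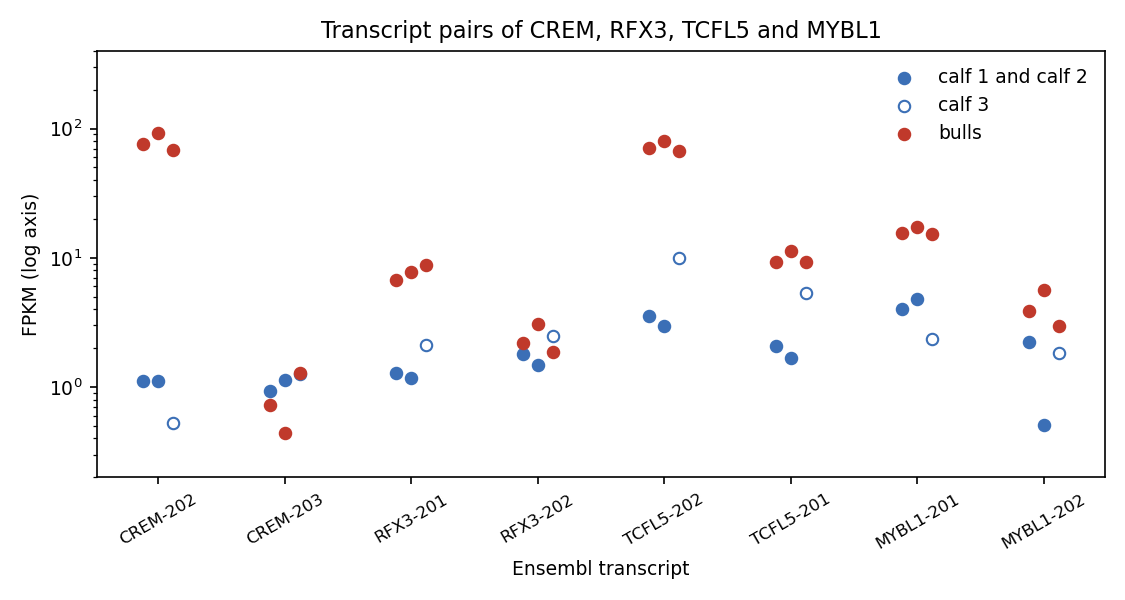
FPKM (log axis) of 2 Ensembl transcripts each of *CREM*, *RFX3*, *TCFL5* and *MYBL1* in calves (blue, calf 3 as open circles) and bulls (red). Calves and bulls overlap for *CREM-203* and *RFX3-202* and are apart for the other 6 transcripts.

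*TBPL1* (ENSBTAG00000035370, chr9:72111142-72154932), a relative of the TATA-binding protein needed for spermiogenesis in mouse, was at 4.57, 5.29 and 4.11 FPKM in calves and 50.7, 56.2 and 47.8 in bulls. Both groups were narrow, and the log2 fold change was 3.22 (SE 0.16, limma adjusted p = 2.23e-05), or 3.15 without calf 3. *TBPL1-201* carried 90.0% to 91.9% of the level in bulls and 61.4% to 87.7% in calves. The assembled entry TCONS_00364331 was listed at 0.0674, 0 and 0 in calves and at 4.80, 5.01 and 3.53 in bulls (log2 fold change 2.40, limma adjusted p = 9.23e-05).

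*GTF2A1L* (ENSBTAG00000023999, chr11:30916080-30965350), the germ cell counterpart of the TFIIA alpha and beta subunit, was at 1.83, 1.25 and 0.635 FPKM in calves and 70.7, 73.3 and 53.2 in bulls. Calf 3 was the lowest calf and the lowest bull was 29.0 times the highest calf, with a log2 fold change of 4.92 (SE 0.26, limma adjusted p = 3.02e-05), or 4.71 without calf 3. *GTF2A1L-201* gave 99.6% to 99.8% of the level in bulls and 82.9%, 68.2% and 34.6% in calves, and its own log2 fold change was 5.21 (limma adjusted p = 5.65e-05).

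Over all 10 genes the transcript table holds 39 entries, 21 from Ensembl and 18 assembled. Of these, 25 passed the filter, 18 were called higher in bulls, none was called lower by limma (0 at an unadjusted p below 0.05) and 7 were not called, against 34.8% of all 23212 transcripts tested called higher. Among Ensembl transcripts 15 of 18 tested were called, and among assembled entries 3 of 7.

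Among bulls the levels fell into 4 tiers. *CREM* stood at the top, with no overlap with *RFX2* below it. *RFX2*, *TCFL5*, *FHL5*, *GTF2A1L* and *TBPL1* followed with means of 85.2 ± 3.65, 82.7 ± 8.09, 67.6 ± 7.72, 65.8 ± 10.9 and 51.5 ± 4.25 FPKM (SD, n = 3), and each overlapped its neighbours in this order. *MYBL1*, *RFX4* and *SOX30* came next, with means of 20.6 ± 2.47, 18.5 ± 3.57 and 15.6 ± 1.51 and again overlapping neighbours, and *RFX3* was lowest with 10.6 ± 0.922. The order within tiers depended on assembled entries. With Ensembl transcripts alone the mean of *RFX2* was 72.4 ± 5.81, below that of *TCFL5*, and that of *RFX4* was 15.5 ± 2.65, near that of *SOX30*. The coefficient of variation among bulls ran from 4.02% (*CREM*) to 19.3% (*RFX4*), with a median of 9.73% against 13.4% over all genes tested. Those genes were not matched to the regulators by level, so the medians do not compare variability at like levels.

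Each germ cell regulator with a widely expressed relative was then compared with that relative inside each library, as log2 of the ratio of (FPKM + 1). The ratio does not depend on how libraries are scaled, apart from the pseudocount of 1. Of 8 such pairs, the ratio was higher in all bulls than in all calves in 6, lower in 1 and overlapping in 1. How often ratios of other gene pairs are free of overlap was not counted. Among single genes tested, all bulls lay above all calves in 46.1%. The exact two-sided permutation test gave p = 0.1 for the 7 pairs without overlap, the smallest possible value, and 0.114 adjusted over 8 pairs, so none could pass the threshold. Without calf 3 the differences kept their signs, and the 7 differences other than that of *RFX4* were 6.0 for *CREM*, 7.58 for *FHL5*, 0.95 for *RFX2*, -0.99 for *RFX3*, 1.30 for *MYBL1*, 2.83 for *TBPL1* and 4.46 for *GTF2A1L* (exact permutation p = 0.2 each).

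*CREM* and *CREB1*, the general cAMP-response factor, stood in opposite order at the 2 ages. The log2 ratio was -1.81, -1.43 and -1.62 in calves and 4.41, 4.41 and 4.32 in bulls, a mean difference of 6.0. *CREB1* itself was lower in bulls, at 12.8, 11.3 and 10.8 FPKM in calves and 5.62, 6.05 and 5.99 in bulls, but its log2 fold change of -0.87 (limma adjusted p = 0.00348) was smaller than a call required. After upper quartile rescaling and after quantile normalization *CREB1* was called lower (-1.44, limma adjusted p = 0.000652, and -1.42, limma adjusted p = 0.000795). *FHL5* and *FHL2*, a LIM-only cofactor of muscle and other tissues, also stood in opposite order, with log2 ratios of -3.19, -2.68 and -0.58 in calves and 4.77, 4.44 and 4.73 in bulls. *FHL2* was called lower, from 8.29, 5.58 and 4.47 FPKM in calves to 1.37, 1.94 and 1.92 in bulls (log2 fold change -1.35, limma adjusted p = 0.00481).

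The basal factors were compared in the same way. *GTF2A1L* lay below *GTF2A1* in all calves, with log2 ratios of -2.91, -3.72 and -3.49, and above it in all bulls, with 1.36, 1.28 and 0.81. *TBPL1* was near equality with *TBP* in calves, at -0.23, -0.11 and 0.20, and well above it in bulls, at 2.48, 2.78 and 2.71. The relatives were not called, with log2 fold changes of 0.40 for *GTF2A1* (limma adjusted p = 0.155) and 0.52 for *TBP* (limma adjusted p = 0.103), and the sign of each turned under another scaling. *MYBL1* exceeded *MYBL2*, the family member of dividing cells, at both ages, with ratios of 0.73 to 1.06 in calves and 1.88 to 2.45 in bulls.

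The RFX genes differed among themselves when set against *RFX1*, which was itself called higher in bulls, from 1.97, 2.24 and 2.21 FPKM to 16.4, 15.3 and 19.4 (log2 fold change 2.52, limma adjusted p = 7.15e-05). The ratio of *RFX2* to *RFX1* was 1.32, 1.31 and 0.51 in calves and 2.24, 2.44 and 2.11 in bulls, a mean difference of 1.22, or 2.91 with Ensembl transcripts of *RFX2* alone. *RFX2* was above *RFX1* in calves only through its assembled entries. Its Ensembl transcripts, at 1.02, 0.700 and 0.439 FPKM, lay below *RFX1* in every calf. In bulls, at 68.9, 69.3 and 79.1, they lay above it. The ratio of *RFX3* to *RFX1* moved the other way, from 0.49, 0.22 and 1.03 to -0.72, -0.41 and -0.77, so that *RFX3* was above *RFX1* in every calf and below it in every bull. For *RFX4* the groups overlapped, as calf 3, at 1.44, lay above all bulls (exact permutation p = 0.4). Without calf 3 the difference was 1.69.

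**Figure D5:**
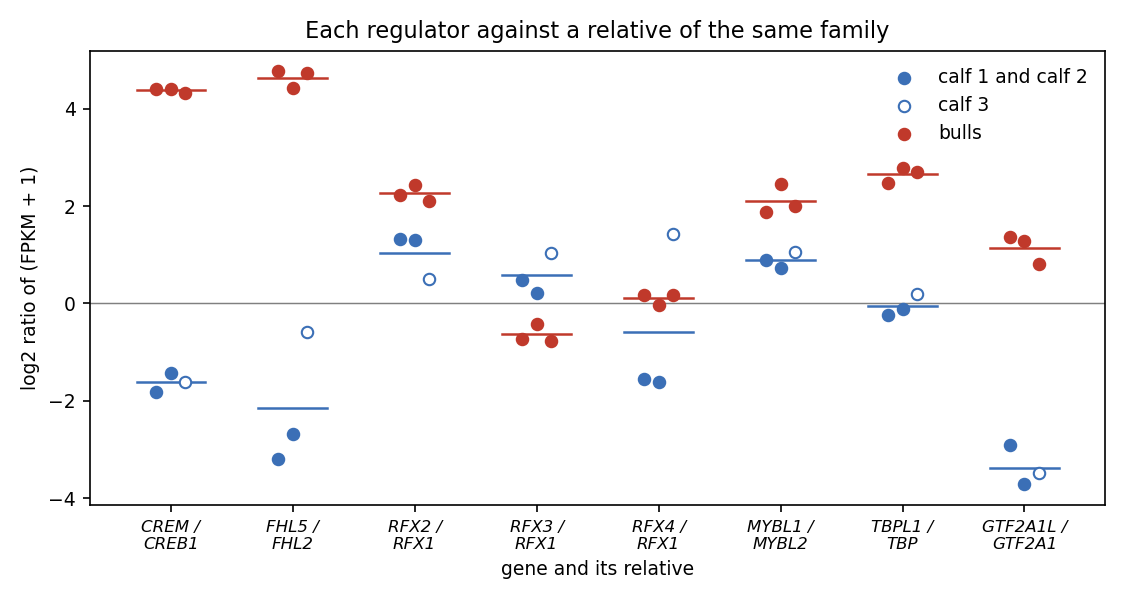
Log2 ratio of (FPKM + 1) of each regulator to a relative in 3 calves (blue, calf 3 as open circles) and 3 bulls (red), with lines at the group means. *CREM*, *FHL5* and *GTF2A1L* lie below 0 in all calves and above 0 in all bulls, *RFX3* does the opposite, and *RFX4* overlaps. The ratio of *RFX2* includes its assembled entries.

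Among the 20 relatives of the regulators, 18 were tested, 7 were called higher, 1 (*FHL2*) was called lower and 10 were not called, with a median log2 fold change of 0.52. The share called higher was near the 35.7% of all genes tested. Without calf 3, 7 were called higher and 3 lower. After quantile normalization 5 were called higher and 5 lower, beside 3827 and 4538 of the 18115 genes tested. The largest differences were those of *RFX8* (4.03), *RFX6* (3.50) and *RFX1* (2.52). The RFX family did not move as one. *RFX5* was called higher (1.82), and *RFX7* was not called (-0.67, limma adjusted p = 0.147), both picked out after their values were seen. *RFX8* was at 0.239, 0.425 and 0 FPKM in calves and 18.1, 20.1 and 18.1 in bulls, close to the level of *RFX4* in bulls.

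Of 24 other regulators of germ cell transcription, 18 were tested, 11 were called higher, 1 lower and 6 were not called (median 2.42), beside 35.7% of all genes tested called higher. Without calf 3 the counts were 11 and 1. *YBX2*, a germ cell Y-box protein that stores mRNA, was highest with a log2 fold change of 8.05, followed by *KIF17*, a kinesin known to move FHL5 in spermatids (6.85), and *KCTD19*, a partner of ZNF541 in late meiosis (6.34). *KIF17* was at 0.658 to 1.54 FPKM in calves and 211 to 259 in bulls, so it shared the wide gap of *CREM* and *FHL5*. *ZBTB16*, the PLZF factor of undifferentiated spermatogonia, was called lower (-1.93, limma adjusted p = 0.000669), from 14.9, 10.2 and 17.2 FPKM to 2.71, 3.16 and 2.81.

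Genes tied to these factors in mouse were counted next, without a test of the lists and beside the 35.7% of all genes tested called higher. All 12 spermatid genes tied to CREM were called higher, with a median log2 fold change of 7.46. They were led by *PRM1* (12.94), *TNP1* (10.62) and *TNP2* (9.69), which encode the proteins that replace histones on sperm DNA. Of 7 pachytene genes tied to MYBL1, 6 were called higher (median 4.48), led by *PIWIL1* (6.49), *TDRD5* (4.97) and *CCNA1* (4.51), and *CCNB3* was not called. Of 14 tested genes of the kind RFX factors bind, which were genes of cilia and flagella plus the testis histone *H1-6*, 11 were called higher and none lower by limma (0 at an unadjusted p below 0.05; median 3.13), led by *TEKT1* (6.60), *TEKT2* (6.15) and *MAK* (5.67). *H1-6* was among the 3 not called, with a log2 fold change of 3.37 (limma adjusted p = 0.102), and was called without calf 3 (1.58, limma adjusted p = 0.00202). Without calf 3 the 3 lists had 12, 6 and 12 genes called higher. The medians of these 3 lists exceeded the 0.43 of all genes tested, as did that of the regulators themselves.

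The markers of cell types differed in how many were called, beside 35.7% of all genes tested called higher. The 6 spermatid markers were all called higher (median 6.44, led by *CAPZA3* 7.63, *TSSK2* 7.25 and *TSSK1B* 6.64), as were 5 of 6 spermatocyte markers (median 3.07, led by *HORMAD1* 4.48, *SYCP2* 3.67 and *DMC1* 3.26). Among 4 tested spermatogonia markers only *DDX4* was called (4.53, a call that leaving out any one bull ended), and among 6 Leydig cell markers only *HSD17B3* (3.28). Of 6 peritubular and endothelial markers *MYH11* (1.99) and *ACTA2* (1.80) were called, a share near that of all genes. None of the 6 Sertoli cell markers and none of the 8 tested neural markers was called with all libraries by limma, and 1 of each list had an unadjusted p below 0.05, both lower. The Sertoli cell marker was *SOX9*, whose log2 fold change of -0.88 (limma adjusted p = 0.0247) was smaller than a call required. Without calf 3 the 6 Sertoli cell markers were all called lower. The part of these differences in the levels of the regulators was not tested.

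For each regulator the genes with the most similar levels over the 6 libraries were named by Pearson's r of log2(FPKM + 1), as a description. Since all 6 libraries fall into 2 groups, many genes were alike: between 571 (*RFX4*) and 2828 (*CREM*) of 13388 genes with a symbol had an r above 0.95. Closest to *CREM* were *C3H1orf94*, *PRR19* and *SSMEM1*, to *RFX2* *MGC137030*, *S100PBP* and *LARP1B*, and to *TBPL1* *PDCL2*, *SUN3* and *GPR18*. For *SOX30* they were *DNAH6*, *CT83* and *VWA3B*, for *GTF2A1L* *BRD1*, *DCDC2* and *DDX19B*, and for *MYBL1* *SSUH2*, *ENO3* and *COPS4*. The 4 regulators that were highest in calf 3 among calves had closest genes with the same feature, which choosing them by r over these same libraries favours. They were *TRIM36*, *STK40* and *HCFC2* for *FHL5*, *SPAG1*, *RPGRIP1L* and *FAM89B* for *RFX3*, *HDAC11*, *LIMS2* and *FAR1* for *RFX4*, and *KCNAB1*, *PPP1R42* and *ACRBP* for *TCFL5*. *HDAC11* was at 13.2, 14.2 and 69.4 FPKM in calves and 139, 130.0 and 149 in bulls, and thus repeated the pattern of *RFX4*.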

How the data were processed

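Testicular total RNA of 3 calves and 3 bulls was depleted of ribosomal RNA and sequenced with strand kept, 1 library per animal. According to the Methods, the authors filtered reads, removed ribosomal reads with Bowtie2, aligned the rest with TopHat2 and built transcripts by StringTie. The deposited values are FPKM per gene and per transcript. The paper names Cuffdiff and Ballgown for circRNAs only, and the tool behind the FPKM of genes is not given in the sources used here. The FPKM of each regulator equalled the sum over its transcripts. Positions are those of the deposited tables. The Methods name UMD3.1.1, but 1050 genes lie on scaffolds named as in ARS-UCD, and all 10 regulators overlapped the RefSeq ARS-UCD2.0 locus of the same symbol.

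Features that reached 1 FPKM in 3 or more libraries were tested with limma 3.58.1 (R 4.3.3) on log2(FPKM + 1) with a trended prior. The pseudocount of 1 understates the change of low genes. Benjamini-Hochberg adjustment ran over the whole table. P-values measure the spread between 3 animals a group. Ratios and shares were compared by exact permutation over 20 labelings with SciPy 1.17.1. Scripts were tested on simulated data. Alternatives changed the pseudocount, filter, scaling, weights, prior trend, replicate block and libraries. The regulators and 12 other gene lists, of which 117 of 123 genes matched, were chosen with earlier results of these data known. The text names all regulators and *CREM* transcripts, each pair's relative, the 3 called genes with the largest change per list plus those called against it, and the 3 most correlated genes per regulator. Other transcripts of the regulators were named after their values were seen. A search of promoters for motifs was not run, as no sequence was used here.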

Additional observations from a re-analysis of the deposited data

How the results depend on the processing

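Of 160 values of the 10 regulators under 16 alternatives each, 153 kept their direction and call and 7 lost the call, 2 of *RFX3* and 5 of *RFX4* as given above. No direction of a regulator turned. The calls of all genes (8215) and transcripts (10255) depended on filter and scaling. With an FPKM of at least 5 there were 5056 genes (4028 higher, 1028 lower) and 5368 transcripts (4361 higher, 1007 lower), with fewer features tested. After quantile normalization 3827 genes were higher and 4538 lower, and 5018 and 5884 transcripts. After rescaling to a common upper quartile 3701 genes and 4627 transcripts were lower, and to a common total 1070 and 1383. The median log2 fold change of all genes was 0.43, -0.26 after quantile normalization, -0.09 after upper quartile and 0.61 after total rescaling, so changes near these values have no firm direction. Signs turned after quantile normalization for *RFX2-AS5* (-0.42), *RFX2-AS7* (-0.15), *RFX2-AS6* (-0.40), *RFX3-202* (-0.44), *GTF2A1* (-0.32) and *MYBL2* (-0.11), and after upper quartile rescaling for *RFX3-202* (-0.24), *GTF2A1* (-0.21) and *TBP* (-0.027), none of them called. Spermatogonia markers called higher were 0 with a pseudocount of 0.1, 2 with array weights and 0 to 2 with 1 library left out (2 without calf 3, 0 without any one bull). Leydig cell markers called higher were 2 after total rescaling, and neural markers 1 with array weights and 0 to 3 with 1 library left out (3 without calf 3). The cause of these shifts was not tested.

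Calves and bulls share only replicate numbers. Deviations of same-numbered libraries correlated at 0.0277, 0.0246 and 0.0341, although each library correlated best with its own number. With the replicate block 8128 genes and 10087 transcripts were called, and all 10 regulators. Among their transcripts the block added calls for *FHL5-203* (1.63, limma adjusted p = 0.00722) and TCONS_00296121 (1.31, limma adjusted p = 0.0125) and ended that of *MYBL1-202* (1.07, limma adjusted p = 0.105). Without counts per gene, the precision of low values such as 0.0119 FPKM was not estimated, and all tests rest on 3 animals a group.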

Other observations

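Some low entries of the regulators were high in a single library, and they were picked out after their values were seen. *RFX2-AS4* was at 0.826 and 0.764 FPKM in bull 1 and bull 3 and at 7.41 in bull 2, and *RFX2-AS3* was at 0.282 and 0.105 in those bulls and at 2.72 in bull 2. Both failed the filter, and together they make bull 2 the bull with the most assembled *RFX2* (18.1 FPKM). The assembled entry TCONS_00038931 of *GTF2A1L* was at 0.313, 0.396 and 0.415 FPKM in calves and at 0.249, 0.134 and 0.142 in bulls. It gave 65.4% of the *GTF2A1L* level of calf 3 and under 1% of that of any bull. The assembled entry TCONS_00364333 of *TBPL1* was at 0.584, 0.653 and 1.58 in calves and at 0.261, 0.452 and 0.361 in bulls, and gave 38.6% of the *TBPL1* level of calf 3. *RFX2-AS1* was at 0.844, 0.448 and 0.496 in calves and at 0.315, 0.360 and 0.277 in bulls. These 3 entries were lower in every bull than in every calf, and none of them was high enough to be tested. The share of all transcripts with such a split was not counted, so no result about these entries is drawn from it.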
